A study of Rattus norvegicus with 9 samples.

Results

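The expression of 10 genes of the NRF2 antioxidant pathway was described in rat livers, out of 17156 gene symbols in the deposited tables. The members were chosen by name and by known function, when earlier results of these data were already known. They are the regulators Nfe2l2 and Keap1 and the target genes Nqo1, Hmox1, Gclc, Gclm, Slc7a11, Gpx2, Txnrd1 and Srxn1. All 10 were found in the tables. Liver RNA was sequenced from 9 male Sprague–Dawley rats, which formed a normal control group, a model group and a TA group of 3 rats each and had all fasted for 12 h. Rats of the model and TA groups received carbon tetrachloride (CCl4, a solvent that injures hepatocytes and causes fibrosis) at 2 ml/kg as a 50% oil solution, by mouth and 2 times a week for 9 weeks. The TA rats were then given tormentic acid (TA, a plant triterpene) at 3.0 mg/kg for 6 weeks. The normal rats received neither CCl4 nor TA, and the model rats received no TA. The labels of the TA libraries give no dose, and these rats were taken as 1 group at 3.0 mg/kg from the study's design. No library of rats given TA without CCl4 was analysed here, so that an effect of TA alone cannot be told apart from its effect after CCl4.

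NRF2, the protein of Nfe2l2, is a transcription factor that binds antioxidant response elements next to its target genes. In unstressed cells KEAP1 holds NRF2 in the cytoplasm and directs its ubiquitination, and oxidants or electrophiles that modify cysteines of KEAP1 let NRF2 escape, so that NRF2 activity is set largely at the level of the protein and need not follow its mRNA. The targets make and use glutathione, regenerate thioredoxin and peroxiredoxins, reduce quinones and break down heme. In the liver they respond to reactive metabolites such as those formed from CCl4.

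Each liver had between 13156735 and 18090405 counted reads. The library of model rat 1 stood apart from the other 8. Its 50 most counted genes took 27.9% of the reads against 40.4% to 45.7% elsewhere, its TMM scaling factor was 1.69 against 0.816 to 1.16, and its summed hepatocyte markers reached 26864 CPM (counts scaled to the size of the library) against 76679 to 153082. Of the 8 hepatocyte markers none was at 0 in any library, and pancreas acinar markers summed to at most 3.73 CPM. Values with and without model rat 1 are given for each result that rests on it. In whole liver, a change in the number of cells of a type and a change in RNA per cell cannot be told apart.

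The normal livers expressed most of the members well, but Gpx2 and Slc7a11 hardly at all. Levels were compared between genes per transcript length, as FPKM (mean ± SD, n = 3). Gclm, the modifier subunit of glutamate-cysteine ligase, stood at 34.5 ± 12.8 FPKM and Nfe2l2 at 33.9 ± 7.74. Txnrd1, the cytosolic thioredoxin reductase, stood at 27.2 ± 4.12 and Keap1 at 24.1 ± 2.15. The ranges of these 4 genes overlapped from neighbour to neighbour. Next by mean, Gclc, the catalytic subunit of the same ligase, had 19.9 ± 2.83 FPKM and overlapped with Hmox1, the inducible heme oxygenase, at 17.7 ± 5.95. Gclc reached 22.3 FPKM and Hmox1 24.3, above the lowest Gclm value of 20.4, so these genes do not form separate levels. Nqo1, a quinone reductase, followed at 9.75 ± 1.69 FPKM and Srxn1, the sulfiredoxin that repairs oxidised peroxiredoxins, at 1.20 ± 0.631, each apart from its neighbours. Gpx2, a glutathione peroxidase best known from the gut epithelium, was at 0.0549 ± 0.0951 FPKM. Slc7a11, the cystine importer, was at 0.0109 ± 0.0127 and overlapped with Gpx2.

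The promoters of Gpx2 and Gclm are shown because both hold a match to the core of an antioxidant response element although their transcripts behaved differently in these livers. RefSeq promoter windows of assembly GRCr8, from 250 bases before to 50 after a gene start, were found for 9 members, with 10 windows in all, and none was used for Hmox1. Either of the motifs TGACNNNGC and TGAGNNNGC, searched on both strands, was present in the windows of 5 members, and in 27.1% of the 33469 windows in the table. The members with a match were Gpx2, Gclm, Srxn1, Nfe2l2 and Txnrd1, the last in 1 of its 2 windows. The windows of Gclc, Keap1, Nqo1 and Slc7a11 held no match, and sequence outside the windows was not searched. The 250 bases before the start are printed from 5′ to 3′ on the gene's strand, with the match in capitals. The Gpx2 sequence lies at chr6:101230034-101230283 on the minus strand, and its match runs from base -13 to base -5 and reads TGACTTAGC on the opposite strand. The Gclm sequence lies at chr2:213031885-213032134 on the plus strand, and its match runs from base -172 to base -164 and reads TGACTAAGC on the opposite strand.
Gpx2: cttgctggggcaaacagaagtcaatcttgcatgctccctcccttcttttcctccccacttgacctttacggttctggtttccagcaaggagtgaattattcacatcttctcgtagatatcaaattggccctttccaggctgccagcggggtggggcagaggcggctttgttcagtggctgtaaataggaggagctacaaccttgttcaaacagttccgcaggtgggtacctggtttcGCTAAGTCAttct
Gclm: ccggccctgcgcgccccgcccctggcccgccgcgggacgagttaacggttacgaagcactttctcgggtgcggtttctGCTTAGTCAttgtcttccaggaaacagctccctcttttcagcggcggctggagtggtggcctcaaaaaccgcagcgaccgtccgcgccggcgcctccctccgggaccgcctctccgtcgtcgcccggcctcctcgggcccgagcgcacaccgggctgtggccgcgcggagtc
Both matches are to TGACNNNGC. Gpx2 was nearly absent from the normal livers and present in every liver that had received CCl4, whereas Gclm was among the highest members in the normal livers and was not called by edgeR in any comparison with all rats included.

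Model VS Normal asked how CCl4 injury changed these genes. Gpx2 rose strongly and was the only one of the 9 tested members called at an adjusted p under 0.05 by edgeR's quasi-likelihood test, a rule that called 7.87% of the 12730 genes tested. By the second rule, called the fold rule here, a gene needed an absolute log2 fold change above 1 and an unadjusted p under 0.05. Gpx2 and Hmox1 were called by it, 2 of 9 members where the rule called 22.1% of all genes. Slc7a11 did not pass the filter on low counts and was described from its counts. The median log2 fold change of the 9 members was -0.05, beside 0.02 over all genes tested, and 4 members were higher and 5 lower. For 3 of 9 tested members (Gpx2, Keap1 and Txnrd1) the groups did not overlap, which was so for 38.2% of the genes tested. Slc7a11, which was not tested, did not overlap either.

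Gpx2 had 0, 3 and 0 counts in the normal rats and 500, 86 and 55 counts in the model rats. In CPM these are 0, 0.193 and 0 for the normal rats and 22.4, 5.66 and 3.89 for the model rats. A count of 0 in normal rats 1 and 3 allows up to 0.249 and 0.252 CPM at 3 counts. All 3 model livers lay above all normal livers, and model rat 1 was the highest. With only 3 counts in the normal group, the ratio of the pooled CPM was 163 with a 95% exact binomial interval of 55.7 to 795, which covers counting error only. Without model rat 1 the ratio was 63.3 (21.2 to 311). The fitted log2 fold change was 7.03 with a standard error (SE) of 1.14 and an adjusted p of 0.0166, a fitted size that depends on the prior count. The edgeR call held without model rat 1 (adjusted p = 0.0111) and was lost when any 1 normal rat was left out. Without normal rats 1, 2 and 3 the adjusted p-values by edgeR were 0.0684, 0.0957 and 0.102. The calls over all genes fell there too, from 1002 to 51, 0 and 0. Over all alternatives the adjusted p of Gpx2 ran from 8.18e-08 to 0.102.

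Hmox1 had 45.0, 29.7 and 24.2 CPM in the normal rats and 1089, 87.6 and 25.0 CPM in the model rats. The first model rat was far above all other livers, the second was above every normal liver, and the third lay within the normal range, so that the groups overlapped. Among the genes of its own library ranked by FPKM, Hmox1 was the 66th in model rat 1, the 1012th in model rat 2 and the 3075th in model rat 3, against places 2139 to 3401 in the normal rats. The log2 fold change was 3.61 ± 1.24 (SE), with an adjusted p of 0.107 by edgeR. Without model rat 1 it was 0.76 (adjusted p = 0.387), and without model rat 3 it was 4.14 and was called (adjusted p = 0.0211). DESeq2 also called it (adjusted p = 0.00458), and the adjusted p-values over all alternatives ran from 0.00458 to 0.387.

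Slc7a11 was scarce in every liver. It had 1, 4 and 0 counts in the normal rats and 19, 9 and 10 counts in the model rats. Every model liver was above every normal liver, and model rat 1 was the highest. The ratio of the pooled CPM was 5.81 (95% exact binomial interval 2.29 to 18.9), and 5.12 (1.85 to 17.5) without model rat 1. When the filter on low counts was left out, the log2 fold change was 2.48 ± 1.02 (SE) with an adjusted p of 0.160 by edgeR.

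The regulators did not pass the test. Nfe2l2 had 79.8, 79.6 and 121 CPM in the normal rats and 75.8, 77.0 and 118 CPM in the model rats, and the groups overlapped. Its log2 fold change was -0.05, with a 95% interval of -0.74 to 0.65. Keap1 had 88.1, 82.2 and 103 CPM in the normal rats and 43.8, 58.4 and 59.7 CPM in the model rats. All model livers were below all normal livers, and the log2 fold change was -0.75 ± 0.241 (SE) with an adjusted p of 0.0916 by edgeR. DESeq2 called Keap1 (adjusted p = 0.0142, with a range of 0.0142 to 0.637 over the alternatives). Both values depended on the scaling. With library totals in place of TMM, the median log2 fold change of all genes moved from 0.02 to 0.65, Keap1 stood at -0.16 and Nfe2l2 turned to 0.54, so that relative to the median both stayed below it.

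Of the enzymes that serve thioredoxin and peroxiredoxins, Txnrd1 had 107, 126 and 98.8 CPM in the normal rats and 61.7, 66.2 and 82.4 CPM in the model rats. The groups did not overlap, and the log2 fold change was -0.66 ± 0.247 (SE) with an adjusted p of 0.128 by edgeR. DESeq2 called it (adjusted p = 0.0348, range over the alternatives 0.0348 to 0.875), and with library totals it was -0.06. Srxn1 had 1.33, 1.35 and 0.419 CPM in the normal rats and 3.32, 1.78 and 0.636 CPM in the model rats. Its groups overlapped, with model rat 1 the highest, and the log2 fold change of 0.89 (95% interval -0.74 to 2.53) became 0.19 without that rat.

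The glutathione ligase subunits did not pass the test either. Gclm had 66.3, 78.5 and 37.2 CPM in the normal rats and 26.4, 20.1 and 54.3 CPM in the model rats. The first 2 model livers were below all normal livers and the third was not, and the log2 fold change was -0.85 (95% interval -1.84 to 0.14). Without model rat 3 it was -1.40 with an adjusted p of 0.0396 by edgeR, where the range over the alternatives was 0.0396 to 0.602. Gclc had 60.3, 79.0 and 76.6 CPM in the normal rats and 38.5, 57.2 and 84.9 CPM in the model rats. Its groups overlapped, and the log2 fold change was -0.25 (95% interval -0.99 to 0.48), which turned to 0.28 with library totals.

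Nqo1, often used as a readout of NRF2 activity, had 14.8, 20.6 and 19.5 CPM in the normal rats and 25.8, 26.9 and 15.3 CPM in the model rats. The first 2 model livers were above all normal livers and the third was among them. The log2 fold change was 0.31, with a 95% interval of -0.34 to 0.96, and did not pass the test.

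**Figure D1:**
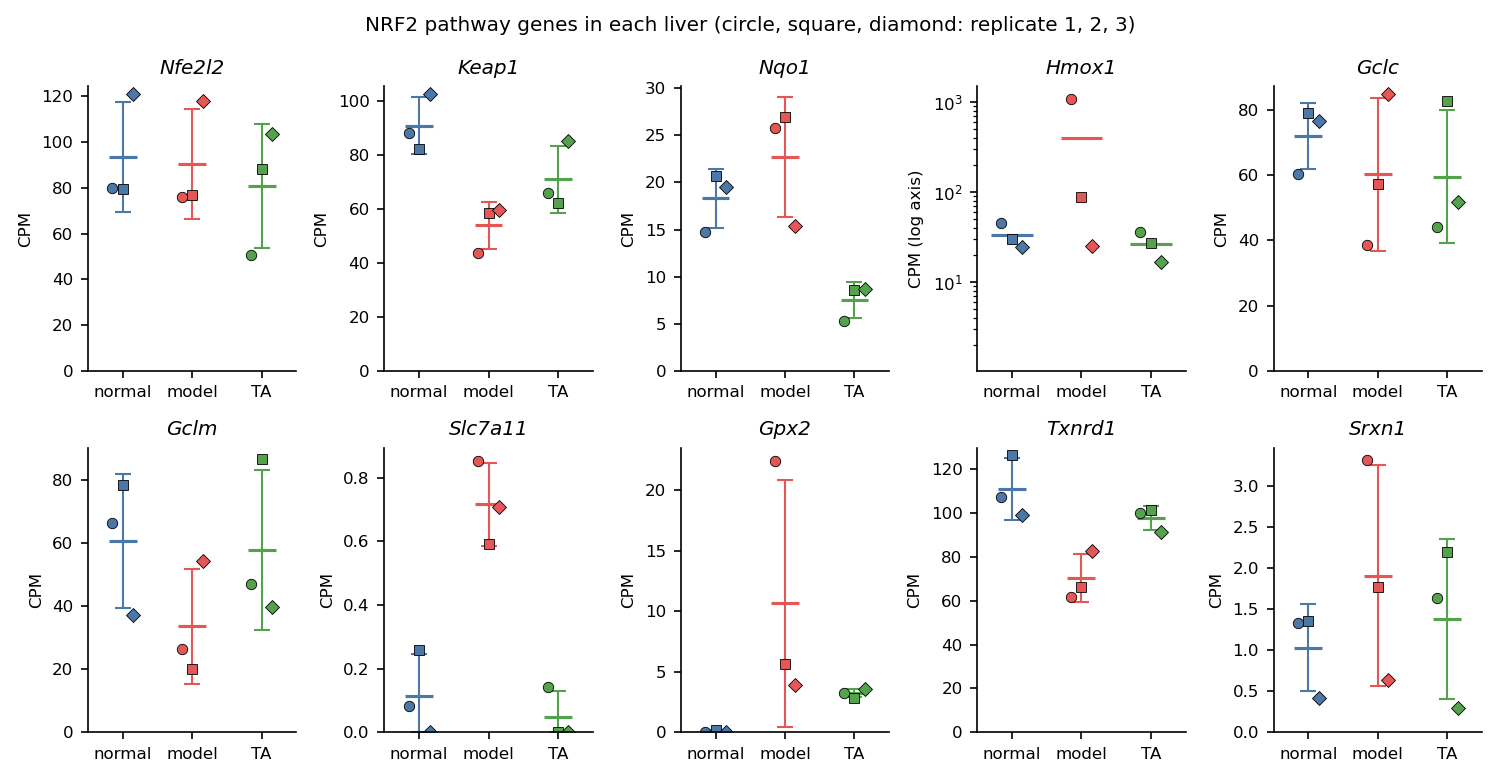
Expression of the 10 members in each liver, in CPM on the y axis (a log axis for Hmox1, axes from 0 otherwise) for the normal, model and TA groups on the x axis. Points are single rats, wide bars are group means and whiskers are 1 SD (no whisker for Hmox1, and whiskers stop at 0). Gpx2 was at 0 to 0.193 CPM in the normal group and at 2.87 CPM or more in all other livers, Hmox1 reached 1089 CPM in model rat 1, and Nqo1 was lowest in the TA group at 5.34 to 8.65 CPM.

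TA VS Model asked how TA treatment after CCl4 changed the same genes. No member was called at an adjusted p under 0.05, and the rule called 0% of the 12781 genes tested by edgeR, with a smallest adjusted p of 0.230, 1999 genes at an unadjusted p under 0.05 and 541 genes called by DESeq2. By the fold rule 3 members were called, all lower in the TA group, namely Nqo1, Hmox1 and Gpx2, where the rule called 12.3% of all genes. Without model rat 1 only Nqo1 remained called by that rule. The median log2 fold change of the 9 members was -0.16, beside -0.004 over all genes, and 3 members were higher and 6 lower. Between the groups 4 of the 9 tested members did not overlap, which was so for 23.1% of the genes tested. The untested Slc7a11 did not overlap either. Model VS Normal and TA VS Model share the model libraries, so that a high value in model rat 1 raises one fold change and lowers the other.

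Nqo1, the quinone reductase, was lower in every TA rat. It had 5.34, 8.54 and 8.65 CPM in the TA rats and 25.8, 26.9 and 15.3 CPM in the model rats. Each TA liver was below each model liver. The log2 fold change was -1.59 ± 0.326 (SE), with an unadjusted p of 0.00128 and an adjusted p of 0.230 by edgeR. That adjusted p is the smallest of the comparison, but several genes share it. Among them, Gstm3 had a lower unadjusted p of 0.000124 by edgeR. When single rats were left out, the log2 fold change of Nqo1 ran from -1.80 to -1.39. DESeq2 called Nqo1 (adjusted p = 0.00350), and the adjusted p-values over all alternatives ran from 0.00350 to 0.567.

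Hmox1 had 36.1, 26.8 and 16.8 CPM in the TA rats. The TA livers were below model rats 1 and 2 but overlapped with model rat 3 at 25.0 CPM. The log2 fold change was -3.92 ± 1.28 (SE) with an adjusted p of 0.264 by edgeR, and it was -1.07 without model rat 1. Only DESeq2 called it (adjusted p = 0.00931, range over the alternatives 0.00931 to 0.567).

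Gpx2 had 46, 34 and 48 counts in the TA rats, or 3.27, 2.87 and 3.58 CPM. The TA rats were close together, and all were below the lowest model rat at 3.89 CPM. The log2 fold change was -1.72 ± 0.653 (SE) with an adjusted p of 0.286 by edgeR, and it was -0.54 without model rat 1. The pooled ratio of model to TA was 3.81 (95% exact binomial interval 3.15 to 4.64) and 1.47 (1.15 to 1.89) without model rat 1. Slc7a11 had 2, 0 and 0 counts in the TA rats against 19, 9 and 10 in the model rats. All TA livers were below all model livers, and a count of 0 in TA rats 2 and 3 allows up to 0.254 and 0.224 CPM. The pooled ratio of model to TA was 14.5 with an interval of 3.74 to 124, and it was 12.7 (3.07 to 113) without model rat 1. Without the filter the log2 fold change was -3.63 ± 1.16 (SE) with an adjusted p of 0.238 by edgeR.

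The other members did not pass the test in TA VS Model. Keap1 had 66.0, 62.1 and 85.4 CPM in the TA rats, each above every model liver, and its log2 fold change was 0.40 (95% interval -0.18 to 0.99), which turned to -0.03 with library totals. Txnrd1 had 100.1, 101 and 91.4 CPM in the TA rats, each above every model liver, and its log2 fold change was 0.48 (95% interval -0.08 to 1.04), which shrank to 0.04 with library totals. With library totals the median of all genes moved from -0.004 to -0.48, so that relative to it both remained above. Gclm had 47.0, 86.7 and 39.7 CPM in the TA rats and overlapped with the model group, with a log2 fold change of 0.79 (95% interval -0.25 to 1.82). Gclc had 44.2, 82.7 and 51.7 CPM in the TA rats, within the range of the model livers, with a log2 fold change of -0.01 (95% interval -0.86 to 0.84). Nfe2l2 had 50.8, 88.2 and 103 CPM in the TA rats, with a log2 fold change of -0.16 (95% interval -0.95 to 0.64). Srxn1 had 1.64, 2.20 and 0.298 CPM in the TA rats, with a log2 fold change of -0.49 (95% interval -2.36 to 1.38). Nfe2l2, Gclc, Gclm and Srxn1 thus overlapped between the groups, and their intervals include changes of either sign.

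TA VS Normal compared the treated livers with uninjured ones. At an adjusted p under 0.05 edgeR called no member and 0.263% of the 12179 genes tested, with DESeq2 calling Nqo1 and Gpx2. By the fold rule 2 members were called, Gpx2 higher and Nqo1 lower, where the rule called 5.25% of all genes. The same 2 members did not overlap between the groups, which was so for 14.9% of all genes. The median log2 fold change of the 9 members was -0.24, beside -0.01 over all genes, and 2 were higher and 7 lower.

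Gpx2 remained present in the TA livers. Against the 3 counts of the normal group the pooled ratio was 42.9 (95% exact binomial interval 14.4 to 211). The fitted log2 fold change was 5.25 ± 0.799 (SE) with an adjusted p of 0.0511 by edgeR. With the replicate number as a block the adjusted p was 0.0304 and the gene was called, and over all alternatives the adjusted p ran from 7.38e-06 to 0.198. Nqo1 was lower in the TA rats, at 5.34 to 8.65 CPM, than in the normal rats, at 14.8 to 20.6 CPM. The log2 fold change was -1.32 ± 0.272 (SE) with an adjusted p of 0.113 by edgeR. With the block it was -1.33 with an adjusted p of 0.0153, DESeq2 also called it (adjusted p = 0.00192), and the range over the alternatives was 0.00192 to 0.382. When genes were ranked by FPKM within a library, Nqo1 took places 6302 to 7762 in the TA rats, 3629 to 4542 in the normal rats and 2880 to 4441 in the model rats. The TA livers were thus the lowest of the 3 groups for Nqo1 on both scales, and this did not rest on model rat 1.

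The remaining members did not pass the test in TA VS Normal, and all of them overlapped between the groups. Hmox1 had a log2 fold change of -0.34 (95% interval -1.10 to 0.42). The regulators stood at -0.24 (95% interval -0.92 to 0.44) for Nfe2l2 and -0.38 (-0.84 to 0.07) for Keap1. The ligase subunits stood at -0.30 (-0.92 to 0.31) for Gclc and -0.10 (-0.94 to 0.74) for Gclm. Txnrd1 stood at -0.21 (-0.64 to 0.22) and Srxn1 at 0.37 (-1.33 to 2.06). Slc7a11 had 2 counts in the TA group and 5 in the normal group, a pooled ratio of 0.402 with a 95% exact binomial interval of 0.0383 to 2.46. Without the filter on low counts its log2 fold change was -1.17 ± 1.55 (SE) with an adjusted p of 0.892 by edgeR.

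**Figure D2:**
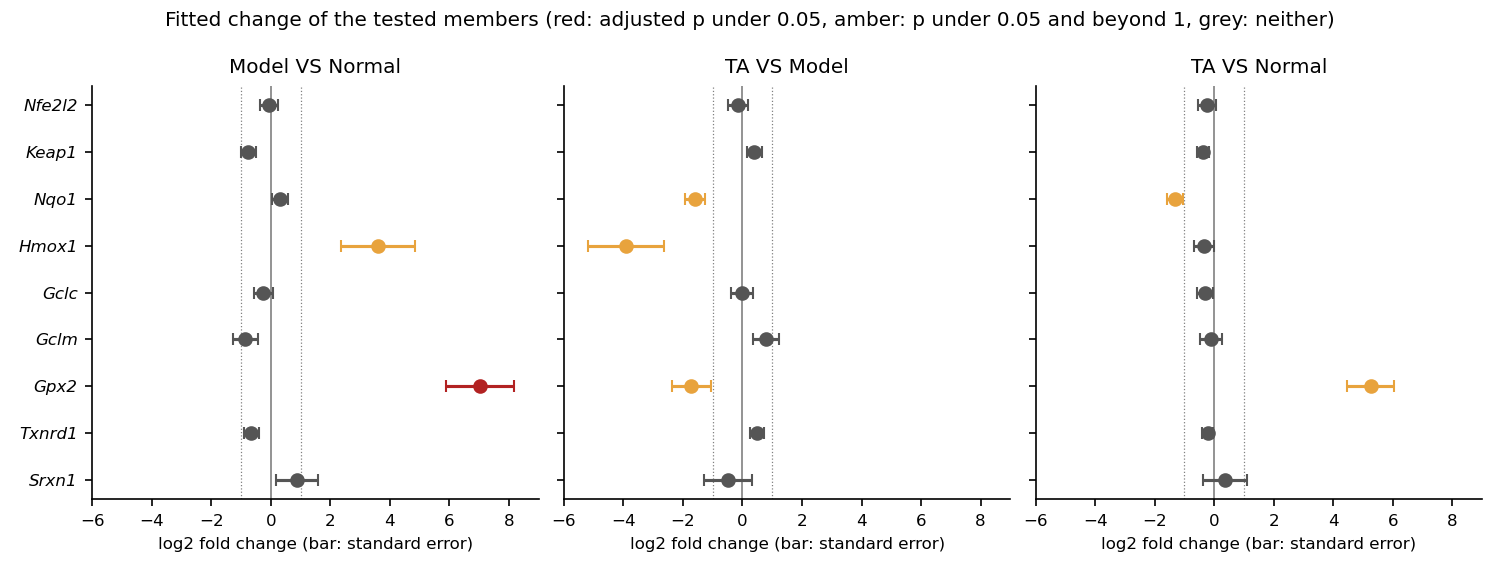
Fitted log2 fold changes of the 9 tested members on the x axis in each of the 3 comparisons, with bars of 1 standard error and dotted lines at a log2 fold change of 1 in either direction. Gpx2 at 7.03 in Model VS Normal is the only point called at an adjusted p under 0.05, Hmox1 has the widest bars in both comparisons with the model group and Gpx2 in TA VS Normal, and Nqo1 lies below zero with narrow bars in both comparisons of the TA group.

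Other genes of the pathway were described from lists grouped by role, each beside the background shares already given. In the list of glutathione synthesis and use, 4 of 12 tested genes rose in Model VS Normal at an adjusted p under 0.05 and none fell. They were Gpx3, the secreted glutathione peroxidase, at a log2 fold change of 3.94 ± 0.581 (SE), Gpx7 at 3.79 ± 0.786 and Gpx8 at 3.35 ± 0.669, peroxidases of the endoplasmic reticulum, and Ggt1, which cleaves extracellular glutathione, at 2.30 ± 0.378. Gpx3 had 22.8, 21.7 and 29.0 CPM in the normal rats and 707, 198 and 221 CPM in the model rats. All 4 were still called without model rat 1, at 3.08 for Gpx3, 2.33 for Gpx7, 2.41 for Gpx8 and 2.08 for Ggt1. Gpx1, the most abundant peroxidase of the list and named here after its values were seen, went the other way. It had 1470.3, 1915 and 1168 CPM in the normal rats. The model rats had 698, 425 and 747 CPM, and the TA rats 482, 808 and 711 CPM. All livers that had received CCl4 were below all normal livers, and by the fold rule Gpx1 was lower at -1.28 in Model VS Normal (adjusted p = 0.115 by edgeR) and at -1.22 in TA VS Normal (adjusted p = 0.151). The median of the list was 0.03, beside 0.02 over all genes. In TA VS Model the same 4 genes were lower by the fold rule, from -1.17 for Ggt1 to -1.76 for Gpx8, and none of them passed that rule without model rat 1. In TA VS Normal Gpx3 was called, at 2.34 ± 0.263 (SE) with an adjusted p of 0.0167 by edgeR, and its TA values of 155, 87.6 and 137 CPM were all above the normal ones.

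The list of other NRF2 target detoxification genes was split. Of 17 tested genes in Model VS Normal, 2 rose at an adjusted p under 0.05, and by the fold rule 5 were higher and 4 lower. Abcc3, an efflux transporter of the hepatocyte basolateral membrane, rose by 2.19 ± 0.474 (SE), and the glutathione transferase Gstm3 rose by 1.66 ± 0.302. By the fold rule the transferase Gsta3 was higher at 2.12 and Gsta5 lower at -1.96. Transferases of one class are near copies of each other, so that the split of reads between them is uncertain. The median of the list was 0.001. In TA VS Model 4 of the 17 were lower and 1 higher by the fold rule, and 3 and 0 without model rat 1. Gstm3 had 8.54, 7.52 and 6.63 CPM in the TA rats, 25.4 to 50.8 CPM in the model rats and 10.3 to 12.1 CPM in the normal rats. Its TA livers were below all others, an order of the groups also seen for Nqo1.

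The thioredoxin, peroxiredoxin, dismutase and catalase list had mostly negative log2 fold changes in the model group. Of 15 tested genes none passed an adjusted p under 0.05 in Model VS Normal and 12 had a negative log2 fold change, with a median of -0.37. By the fold rule Txnip, an inhibitor of thioredoxin, was higher at 1.51 and the mitochondrial reductase Txnrd2 lower at -1.23. Txnrd2 was called lower without model rat 1, at -0.99 (adjusted p = 0.0440 by edgeR), and Txnip was called higher with library totals, at 2.15 (adjusted p = 0.0263). With library totals the median was 0.18 and 7 of the 15 were negative, while the median of all genes stood at 0.65. In TA VS Model 11 of the 15 were positive, with a median of 0.37, and none was called by either rule, and with library totals the median was -0.06 where that of all genes was -0.48.

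Among 11 tested partners and regulators of NRF2, none was called at an adjusted p under 0.05 in Model VS Normal, and Maff, a small MAF protein that pairs with NRF2, was higher by the fold rule at 1.40 ± 0.427 (SE). Without model rat 1 Maff was called (adjusted p = 0.0457 by edgeR). Of 6 tested genes of heme breakdown and iron storage, Slc48a1, a transporter that brings heme out of lysosomes, passed the fold rule at 1.63, and it was 0.49 without model rat 1. Slc48a1, like Hmox1, was highest in model rat 1.

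ATF4 shares targets with NRF2, among them Slc7a11, so its target list was described too. In Model VS Normal 3 of 11 tested genes rose and 2 fell at an adjusted p under 0.05, with a median of 1.12. Phgdh and Psat1, enzymes of serine synthesis, rose by 3.54 ± 0.540 (SE) and 2.15 ± 0.462, the arginine transporter Slc7a1 rose by 2.78 ± 0.597, and Sesn2, a stress-induced inhibitor of mTORC1, fell by 1.77 on the log2 scale. Phgdh (3.47) and Sesn2 (-1.65) were still called without model rat 1, while Psat1 at 1.80 (adjusted p = 0.0569 by edgeR) and Slc7a1 at 2.35 (adjusted p = 0.0573) were not. In TA VS Model none was called at an adjusted p under 0.05 in edgeR, and by the fold rule 2 were higher and 3 lower. Phgdh was at -2.41 ± 0.513 (SE) there, with 2.99, 5.07 and 1.79 CPM in the TA rats and 18.7, 24.7 and 8.76 CPM in the model rats.

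**Figure D3:**
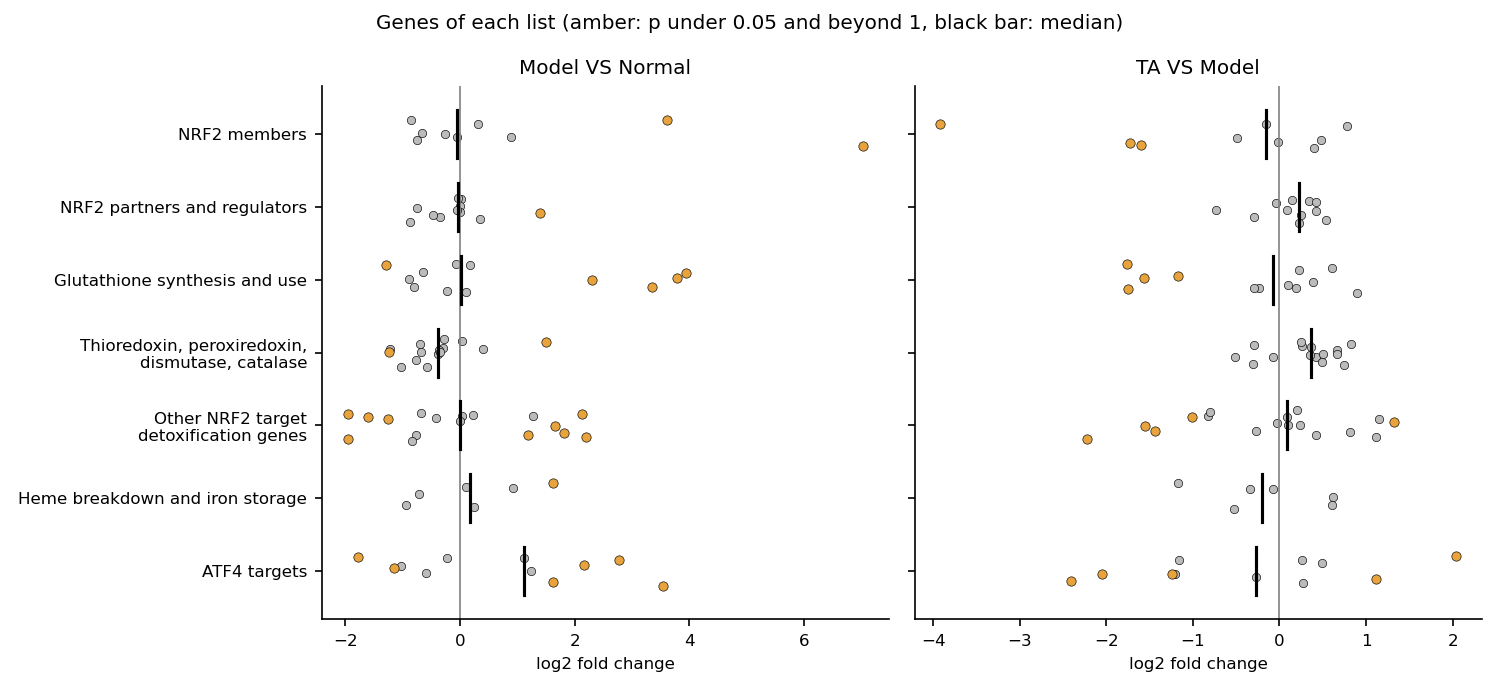
Log2 fold change (x axis) of each tested gene of the lists (y axis) in Model VS Normal and TA VS Model, with genes past an unadjusted p of 0.05 and an absolute log2 fold change of 1 in amber and the median of each list as a black bar. The medians of the NRF2 members lie at -0.05 and -0.16, and of the amber points of the glutathione list 4 lie to the right and 1 to the left in Model VS Normal, and all 4 lie to the left in TA VS Model.

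Markers of cell types moved with several of these results. The 8 hepatocyte markers summed to 26864, 76679 and 97659 CPM in the model rats, 116399 to 144794 in the normal rats and 92214 to 153082 in the TA rats, so that every model liver lay below every normal liver. All 8 had a negative log2 fold change in Model VS Normal, with a median of -1.09, and 7 of 8 a positive one in TA VS Model, with a median of 0.95, and none was called by either rule. With TMM, Keap1, Txnrd1, Gclm and the median of the thioredoxin list had the same signs as these markers in both comparisons. Library totals left the marker medians at -0.60 (Model VS Normal) and 0.65 (TA VS Model), and Txnrd1 and Gclm kept their signs. The thioredoxin list then had the opposite signs, with medians of 0.18 and -0.06, and Keap1 was at -0.03 in TA VS Model. Relative to the medians of all genes there, 0.65 and -0.48, they all stayed on the side of the markers. The 10 macrophage markers summed to 2751 CPM in model rat 1, 604 in model rat 2 and 738 in model rat 3, against 496 to 732 in the normal group and 535 to 1099 in the TA group, and none was at 0 in any liver. Single markers of this list went both ways in Model VS Normal, from 3.21 for Lyz2 and 2.16 for Cd68 to -1.50 for Clec4f and -2.17 for Marco, and Lyz2 alone gave 1617 CPM of the sum in model rat 1. Without model rat 1 Cd163 at -1.63 and Marco at -1.73 were called (adjusted p = 0.0202 and 0.0371 by edgeR). These markers were picked out after their values were seen. Hmox1, which macrophages that clear red cells are known to express, was also highest in model rat 1, while in model rat 2 Hmox1 was above every normal liver and the macrophage sum was within the normal range. The 8 stellate cell and myofibroblast markers summed to 12475, 1154 and 1453 CPM in the model rats, 199 to 289 in the normal rats and 659 to 1155 in the TA rats, with at most 1 marker at 0 in a liver. Gpx2 too was highest in model rat 1 and lowest in the normal rats. The 7 cholangiocyte markers summed to 210, 222 and 138 CPM in the model rats, 38.1 to 58.5 in the normal rats and 61.5 to 67.2 in the TA rats, with 1 marker at 0 in 1 normal liver. The 5 cycling cell markers summed to 17.1 to 229 CPM in the model rats, 5.96 to 11.0 in the normal rats and 3.88 to 14.1 in the TA rats. The 8 lymphocyte and neutrophil markers summed to 47.9 to 72.7 CPM in the model rats against at most 27.8 in the normal and 36.6 in the TA rats. Endothelial markers summed to 169 to 326 CPM and erythroid markers to 261 to 1613 CPM over all livers, without a split of the sums by group. Single endothelial markers went both ways, since 2 of 6 were higher and 1 lower by the fold rule in Model VS Normal. In TA VS Model 2 of these 6 were higher and 0 lower by that rule. The part of these cell types, hepatocytes included, in the results for Gpx2, Hmox1, Slc7a11, Keap1, Txnrd1 and the other genes was not tested.

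**Figure D4:**
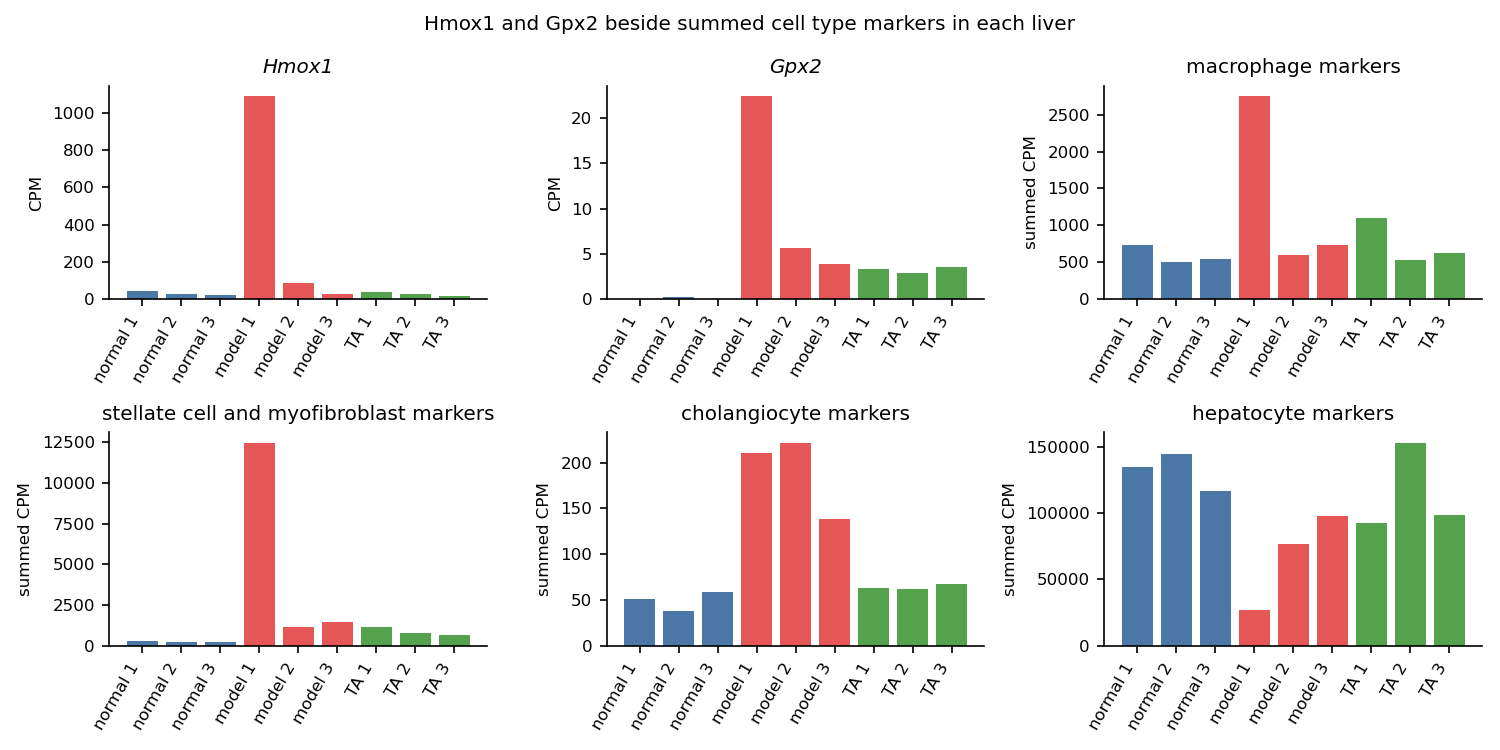
Expression of Hmox1 and Gpx2 (CPM) and summed CPM of 4 marker lists (y axes, from 0) in each of the 9 livers (x axes). Model rat 1 has the highest bars for Hmox1, Gpx2, macrophage and stellate cell markers and the lowest for hepatocyte markers, whereas cholangiocyte markers are raised in all 3 model rats, at 138 to 222 CPM.

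Of the members, Gpx2 had the largest change in Model VS Normal, and the genes with the most similar pattern over the 9 livers were taken from the 7958 genes whose mean log2 CPM was 3 or more. They were Tgfb3 (Pearson r of log2 CPM 0.980), Itga8 (0.978), Aqp1 (0.978), Ppard (0.973) and Csnk1e (0.972). The 9 livers fall into 3 groups, with a mean Gpx2 of 0.0643 CPM in the normal, 10.7 in the model and 3.24 in the TA rats. Between the model and TA groups Gpx2 was not called at an adjusted p under 0.05 by edgeR. After the group means were taken out, r was between 0.786 and 0.873, and the extreme level of model rat 1 enters each of these values. So do the 0, 3 and 0 Gpx2 counts of the normal livers, whose log2 CPM depends on the prior count.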

How the data were processed

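RNA was sequenced from 9 rat livers, 3 per group, and groups were taken from the labels. The authors used STAR on the trimmed reads and HTSeq-count for the counts per gene. The mapping genome is unresolved, since a human genome is named in the paper's methods, a mouse build in the submitters' processing notes, and 90.9% of the 17156 symbols match rat RefSeq genes (assembly GRCr8). The strand setting of the counting is not given in the sources used here, so reads of overlapping genes cannot be told apart. The authors deposited raw read counts, without normalization, which were tested here, and FPKM values, used to compare levels between genes. The deposited normalized values, log2 fold changes and p-values of the authors were not used, and 0 columns of values belonged to no sample.

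Counts were tested with edgeR 4.0.16 (quasi-likelihood, TMM, filterByExpr with a minimum count of 10 and a total of 15) in R 4.3.3, on the libraries of the groups compared, with Benjamini-Hochberg adjustment over all genes tested. Genes were called at an adjusted p under 0.05, and also by the fold rule (an absolute log2 fold change above 1 and an unadjusted p under 0.05). Each standard error is the absolute log2 fold change over the square root of F. CPM used TMM over all 9 libraries. Pooled count ratios had 95% exact binomial intervals (SciPy 1.17.1), which, like limits at 3 counts, cover counting error only, and were chosen after the data had been seen. An exact permutation test of 3 against 3 cannot go below a two-sided p of 0.1. Replicates are different rats, and the labels give no batch or pairing. In TA VS Normal, rats with the same number deviated together from the group means, at r = 0.256, 0.424 and 0.498. Rats with unlike numbers had r from -0.450 to 0.170. The number, taken from the labels, was therefore also fitted as a block, and blocked values stand beside the results of that comparison that they change. Whether the number marks a shared factor was not tested, so calls with the block are only an alternative to the main test. The tests were tested on simulated data, with changes planted only in genes above a minimum mean count. Apart from library size and scaling, simulated livers of a group shared the same expected levels, so none stood apart like model rat 1. The alternatives were DESeq2 1.42.0, RLE size factors, library totals, no filter, the newer quasi-likelihood form, all 9 libraries in 1 fit, the block and leaving out each rat. The members and gene lists were chosen with earlier results of these data known. All 10 members were named, and of each other list up to 4 genes, first those at an adjusted p under 0.05 in Model VS Normal by size, then those past the fold rule. 1 of the gene lists is not reported here.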

Additional observations from a re-analysis of the deposited data

How the results depend on the processing

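Of the members' log2 fold changes, 311 of 351 alternative values kept their direction and their side of an adjusted p of 0.05. Genes called in Model VS Normal, 1002 in the main test, numbered 2654 with DESeq2, 1980 with library totals and 1757 with all 9 libraries in 1 fit, and 0 to 2537 when 1 rat was left out. No gene was called without normal rat 2 or 3, 51 without normal rat 1, 589 without model rat 2 and 2537 without model rat 3. The main calls split into 873 higher and 129 lower, against 1802 and 852 with DESeq2. By the fold rule 2112 were higher and 706 lower, against 3738 and 221 with library totals. Members called there numbered 4 with DESeq2 and 0 to 3 when 1 rat was left out, and by the fold rule 1 with the replicate block and 1 to 3 when 1 rat was left out. In TA VS Model, where the main test called 0 genes, DESeq2 called 541 genes and 2 members, and leaving out 1 rat gave 0 to 1 genes. By the fold rule library totals called 2447 genes against 1571, split into 89 higher and 2358 lower against 270 and 1301, leaving out 1 rat called 792 to 2792 (792 without model rat 1, 2792 without model rat 3, 973 without TA rat 2) and 1 to 4 members, 1 of them without model rat 1 or TA rat 3. In TA VS Normal, 32 genes became 360 with DESeq2, 56 with library totals, 76 with no filter, 14 with all 9 libraries, 203 with the replicate block and 1 to 61 when 1 rat was left out (4, 1 and 10 without normal rats 1, 2 and 3, 3 without TA rat 1 and 61 without TA rat 3). Members called there numbered 2 with DESeq2 and with the replicate block, and 1 each with library totals, no filter and the newer quasi-likelihood form, which was Gpx2.

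The sign changed for some members near 0. With library totals the log2 fold change was 0.545 for Nfe2l2 and 0.284 for Gclc in Model VS Normal, -0.0348 for Keap1 in TA VS Model and 0.0657 for Gclm in TA VS Normal. Gclc in TA VS Model was 0.00297 with DESeq2, 0.00298 with RLE size factors and 0.00941 with the replicate block. Leaving out 1 rat gave -0.302 to 0.152 for Nfe2l2 in Model VS Normal, -0.367 to 0.0953 for Nfe2l2, -0.314 to 0.329 for Gclc and -0.967 to 0.193 for Srxn1 in TA VS Model, and -0.453 to 0.00347 for Nfe2l2, -0.528 to 0.133 for Gclm and -0.142 to 0.843 for Srxn1 in TA VS Normal. The cause of these changes was not tested.

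The block by replicate number moved Hmox1 in Model VS Normal to 1.98 and its TA VS Model value to -2.28, without a call, and apart from Nqo1 and Gpx2 in TA VS Normal it changed no call of a member at an adjusted p under 0.05. In Model VS Normal same-numbered rats correlated at 0.211, -0.0567 and -0.0521, and the values for TA VS Model were 0.219, -0.0354 and 0.00668. In every comparison the labels give same-numbered rats only a number in common. With 3 rats per group and 0 to 4 counts per liver, the fold changes of Gpx2 and Slc7a11 against normal livers are limited by counting. The counts of the other lists without model rat 1 were chosen after the data had been seen.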
